A study of Mus musculus with 26 samples.

Results

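The 10 genes described here encode proteins that release, store, take up and extrude calcium in the heart muscle cell: Ryr2, Casq2, Casq1, Jph2, Atp2a2, Pln, Sln, Slc8a1, Atp2b1 and Camk2d. They were chosen by symbol from the 40413 genes of a table of expected counts for mouse left ventricle for their roles, by no threshold on their values, though with earlier results of these data known. All 10 were in the table, and 9 of them were among the 15543 genes that passed the filter on low counts. Sln did not pass it. By its labels every library held polyadenylated RNA of the left ventricle of 1 adult mouse, which the markers of 1 library went against. The groups were BPH/2J mice given Cmpd17b (BPH_Cmpd17b, 7 libraries, 6 of them used), BPH/2J mice given vehicle (BPH_vehicle, 7), BPN/3J mice given Cmpd17b (BPN_Cmpd17b, 5) and BPN/3J mice given vehicle (BPN_vehicle, 7). BPH/2J is an inbred line bred for high blood pressure and BPN/3J the normotensive line bred beside it. Cmpd17b is a small-molecule agonist of formyl peptide receptors, which was injected into the peritoneum at 50 mg/kg a day for 28 days. Blood pressure and every other inherited difference between the lines cannot be told apart in a comparison of strains.

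In a cardiomyocyte, calcium that enters through L-type channels opens the ryanodine receptor of the sarcoplasmic reticulum, and the calcium released there triggers contraction. The SERCA pump then returns calcium to the reticulum, where calsequestrin binds it, and the sodium-calcium exchanger carries out of the cell what entered. Small membrane proteins such as phospholamban and sarcolipin hold SERCA back, and the kinase CaMKII relieves that hold and acts on the ryanodine receptor. Changes in the levels of SERCA, the exchanger and CaMKII have often been described in hypertrophied and failing hearts.

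Total counts ran from 25476112 to 48648196 per library, and mitochondrial genes took 26.23% to 38.68% of the counts in the 25 libraries used. The library labelled BPH_Cmpd17b replicate 7 went against its tissue label. It had 2.42 CPM (the usual unit of counts relative to a library's depth, here not scaled between libraries) of Ryr2, against 293 to 826 CPM in the 25 others, and 16.3 CPM of the heart myosin gene Myh6, against 13300 to 23210 CPM. It was left out, and values in CPM below are scaled by TMM factors. The 12 ventricular cardiomyocyte markers summed to between 50120 and 77170 CPM in each of the 25 libraries. Among these, BPN_vehicle replicate 7 stood apart for the calcium genes themselves, as described further on, so tests are given with it (25 libraries) and without it (24 libraries). The fit without it was picked for display after those values were seen. Tests are edgeR quasi-likelihood F-tests with a term for the 2 batches of the labels. A gene is called changed where its p, adjusted over all genes tested, was under 0.05. These p-values measure the spread between mice.

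The 2 calsequestrin genes carry the clearest contrast among the members, so the 250 bases before their annotated starts are printed (RefSeq, GRCm38.p6, the C57BL/6J reference and not the BPH/2J or BPN/3J sequence). Capitals mark E-boxes (CANNTG, which reads the same on both strands) and a match to the MEF2 consensus. The Casq1 window is chr1:172219896-172220145 on the minus strand, and the Casq2 window is chr3:102086165-102086414 on the plus strand.
Casq1: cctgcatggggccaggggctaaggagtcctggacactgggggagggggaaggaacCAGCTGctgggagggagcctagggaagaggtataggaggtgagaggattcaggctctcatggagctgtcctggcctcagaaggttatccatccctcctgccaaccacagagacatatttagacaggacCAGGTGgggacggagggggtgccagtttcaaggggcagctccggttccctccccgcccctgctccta
Casq2: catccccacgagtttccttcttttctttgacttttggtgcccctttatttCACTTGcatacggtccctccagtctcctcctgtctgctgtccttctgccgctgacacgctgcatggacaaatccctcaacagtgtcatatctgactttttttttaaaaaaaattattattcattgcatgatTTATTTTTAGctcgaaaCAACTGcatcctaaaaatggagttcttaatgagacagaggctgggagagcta
The Casq1 window holds 2 E-boxes, CAGCTG and CAGGTG, and the Casq2 window holds 2, CACTTG and CAACTG, with TTATTTTTAG as its MEF2 match. These matches do not overlap. Of 32851 promoter windows of that length, 66.2% hold an E-box and 2.92% a MEF2 match. On both strands, the CArG consensus (in 1.47% of windows), the MCAT motif CATTCC (12.6%) and TATAAA (12.4%) had no match in either window, and GATAA (22.6%) had 1 match, in the Casq1 window. These matches describe letters and not bound sites.

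Levels of the members differed by orders of magnitude. Per kilobase of annotated exon, averaged over the 25 libraries, Pln reached 1980 CPM and Atp2a2 1400 CPM, followed by Casq2 at 311, Jph2 at 111, Ryr2 at 23.1, Slc8a1 at 19.4, Camk2d at 6.54, Casq1 at 4.01, Atp2b1 at 2.96 and Sln at 0.654 CPM per kilobase. Neighbours in that order overlapped in their ranges over libraries, except Atp2a2 (427 to 1710) with Casq2 (110 to 393) and Jph2 (42.4 to 131) with Ryr2 (10.2 to 28.7). The overlaps of Casq2 with Jph2 and of Slc8a1 with Camk2d came through BPN_vehicle replicate 7 alone. That of Sln with Atp2b1 came through BPH_vehicle replicate 7 alone. Paralogs used mainly in skeletal muscle or brain were low: Atp2a1 had 0.134, Ryr3 0.0806 and Ryr1 0.00884 CPM per kilobase.

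**Figure D1:**
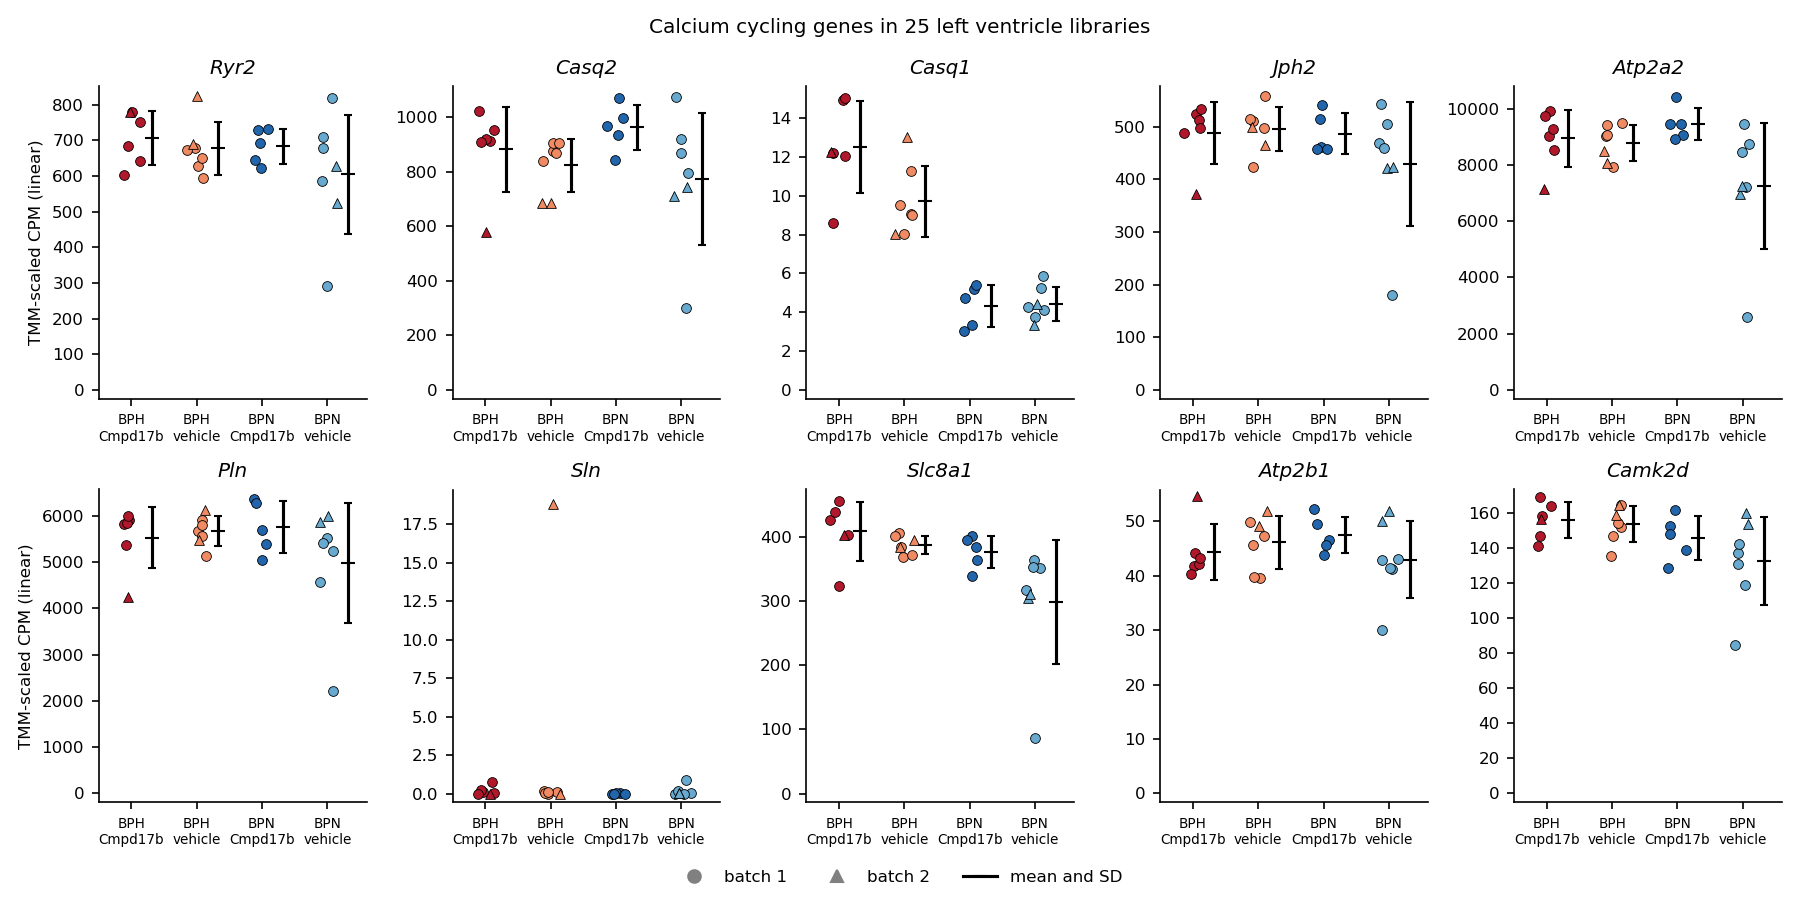
TMM-scaled CPM of each member (linear axes) in the 25 libraries, by group, with circles for batch 1, triangles for batch 2 and bars for the mean and SD (no bar for Sln, which is near 0 in most libraries). Casq1 in both BPH/2J groups lies above every BPN/3J library, 1 BPN_vehicle library lies low in most other panels, and Sln stands out in 1 BPH_vehicle library.

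Casq1, the calsequestrin known mainly from skeletal muscle, was 2.19 to 2.90 times as high in BPH/2J as in BPN/3J ventricles, by treatment. It measured 8.59 CPM at the lowest, 12.2 at the median and 15.04 at the highest in BPH_Cmpd17b, and 3.05, 3.35, 4.72, 5.18 and 5.41 CPM in BPN_Cmpd17b. In the vehicle groups, the lowest, median and highest values were 8.02, 9.06 and 13.0 CPM in BPH_vehicle and 3.33, 4.27 and 5.89 CPM in BPN_vehicle. Every BPH/2J library lay above every BPN/3J library in both comparisons. With vehicle, the log2 difference was 1.13 (SE 0.15, a fold of 2.19 with a 95% interval of 1.76 to 2.71, adjusted p = 1.81e-06). With Cmpd17b it was 1.53 (SE 0.17, a fold of 2.90 with an interval of 2.26 to 3.71, adjusted p = 1.43e-07). Casq1 was the 1 of 9 members called in each strain comparison, where 18.9% of all genes tested were called with vehicle and 14.1% with Cmpd17b, in either direction. As for libraries that do not overlap, 3.4% of genes lay wholly higher in BPH_vehicle than in BPN_vehicle and 6.09% wholly higher in BPH_Cmpd17b than in BPN_Cmpd17b. The vehicle difference kept its direction within each batch, at 1.01 in batch 1 (5 libraries against 5, adjusted p = 0.000127) and 1.44 in batch 2. Batch 2 held 2 libraries against 2, with 8.02 and 13.0 CPM in BPH_vehicle and 3.33 and 4.45 CPM in BPN_vehicle. With Cmpd17b it was 1.53 within batch 1 (adjusted p = 4.15e-07), since BPN_Cmpd17b has no batch 2 library. Without BPN_vehicle replicate 7 the differences were 1.21 with vehicle and 1.53 with Cmpd17b, and both were called. With the kidney-like library put back, so that all 26 entered the fit, the differences were 1.15 and 1.36 and neither was called (adjusted p = 0.119 with vehicle and 0.113 with Cmpd17b). That library holds 3 counts of Casq1.

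The counts behind Casq1 ran from 95 to 521 per library, the fewest of the 9 members tested. The 13 skeletal muscle markers summed to 31.3 to 60.2 CPM in BPH_Cmpd17b, 25.6 to 37.6 in BPH_vehicle, 33.4 to 49.9 in BPN_Cmpd17b and 33.5 to 53.1 in BPN_vehicle. The fast myosins Myh1, Myh2 and Myh4 were each at 0 in 17 of the 25 libraries, and Mybpc2, with 13.2 to 52.6 CPM, and Cacna1s, with 5.73 to 19.6 CPM, made up most of the sum. Of the 6 skeletal markers tested, these 2 were called lower in BPH_vehicle than in BPN_vehicle (-0.79 and -0.38). That is 33.3% of the 6, beside 18.9% of all genes. The median of the 6 was 0.12, and none was called with Cmpd17b, where 14.1% of all genes were. The 8 conduction system markers did lie higher in BPH/2J, with sums of 25.8 to 30.7 CPM in BPH_Cmpd17b and 21.1 to 23.9 in BPN_Cmpd17b, and of 24.1 to 34.0 in BPH_vehicle and 19.2 to 23.7 in BPN_vehicle. Of 7 of them tested, 2 were called higher with Cmpd17b (28.6% beside 14.1% of all genes) and 3 with vehicle (42.9% beside 18.9%). Hcn4, the main pacemaker channel gene of the sinus node, was not called (-0.33 with Cmpd17b and -0.25 with vehicle), and Isl1 was at 0 in 24 of the 25 libraries. Of 7 atrial markers tested, 2 were called higher and 1 lower with Cmpd17b (42.9% beside 14.1%), and 2 higher with vehicle (28.6% beside 18.9%). The part of such cells in the Casq1 difference was not tested. In the GRCm38 annotation Casq1 shares exon bases with Gm17224 on the other strand, and whether the counting used strand is not given in the sources used here. Gm17224 itself differed by -0.53 with vehicle (adjusted p = 0.337) and 0.04 with Cmpd17b (adjusted p = 0.968). Within groups, the genes whose log2 CPM moved most like that of Casq1 over the 25 libraries were Prrt1 (Pearson r = 0.75), Gli2 (0.747) and Gpr19 (0.724). They were picked as the highest of all 15543 genes tested, in the same libraries, with group means but not batch taken out. Whether such values exceed those of unrelated genes was not tested.

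Casq2, the calsequestrin of heart muscle, was not called in any comparison. Its lowest, median and highest levels were 578, 915 and 1023 CPM in BPH_Cmpd17b, 684, 868 and 906 CPM in BPH_vehicle, and 302, 797 and 1075 CPM in BPN_vehicle. The 5 BPN_Cmpd17b libraries had 842, 934, 967, 997 and 1070 CPM. The 4 groups overlapped throughout. The log2 strain difference was 0.08 with vehicle (95% interval -0.24 to 0.40) and -0.08 with Cmpd17b (-0.45 to 0.28). With 24 libraries both were -0.07, with intervals of -0.22 to 0.07 and -0.23 to 0.08. The share of Casq1 in the sum of both genes per kilobase was 2.01% ± 0.57 (SD, n = 6) in BPH_Cmpd17b and 0.635% ± 0.18 (n = 5) in BPN_Cmpd17b. It was 1.66% ± 0.46 (n = 7) in BPH_vehicle and 0.97% ± 0.75 (n = 7) in BPN_vehicle, where replicate 7 alone had 2.66%. Casq2 was the larger of the pair in every library.

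Ryr2, which encodes the release channel, and Jph2, the junctophilin that holds the reticulum close to the T-tubule, were not called in any of the 5 comparisons. Ryr2 averaged 707 ± 75.5 CPM in BPH_Cmpd17b, 678 ± 73.2 in BPH_vehicle, 684 ± 48.98 in BPN_Cmpd17b and 605 ± 167 in BPN_vehicle (SD, n = 6, 7, 5 and 7, as for all 4 group means below). Without BPN_vehicle replicate 7, the BPN_vehicle mean was 657 ± 102 CPM (n = 6). The strain difference of Ryr2 with vehicle was 0.16 (interval -0.12 to 0.44) with 25 libraries and 0.04 (-0.14 to 0.22) with 24. Jph2 averaged 488 ± 58.9 CPM in BPH_Cmpd17b, 496 ± 42.3 in BPH_vehicle, 487 ± 39.4 in BPN_Cmpd17b and 429 ± 118 in BPN_vehicle. Its strain difference with vehicle was 0.21 (-0.08 to 0.50) with 25 libraries and 0.07 (-0.07 to 0.21) with 24.

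Atp2a2, the gene of the SERCA2 pump, and Pln, the gene of its inhibitor phospholamban, had the highest levels of the members. Atp2a2 measured 7145, 9157 and 9925 CPM at the lowest, median and highest in BPH_Cmpd17b, 7931, 9008 and 9492 in BPH_vehicle, and 2598, 7262 and 9465 in BPN_vehicle. The BPN_Cmpd17b libraries had 8934, 9066, 9440, 9443 and 10411 CPM. All groups overlapped, and the lowest value was that of BPN_vehicle replicate 7. The strain difference of Atp2a2 with vehicle was 0.28 (interval -0.05 to 0.60, adjusted p = 0.249), and 0.12 (-0.02 to 0.27, adjusted p = 0.203) with 24 libraries. Pln averaged 5528 ± 668 CPM in BPH_Cmpd17b, 5664 ± 322 in BPH_vehicle, 5751 ± 566 in BPN_Cmpd17b and 4975 ± 1303 in BPN_vehicle. Its strain difference was 0.19 with vehicle (-0.09 to 0.48) and -0.07 with Cmpd17b (-0.39 to 0.26), and with 24 libraries 0.06 (-0.11 to 0.22) and -0.06 (-0.24 to 0.12). The ratio of Atp2a2 to Pln, per kilobase, was 0.735 ± 0.03 in BPH_Cmpd17b, 0.705 ± 0.07 in BPH_vehicle, 0.75 ± 0.07 in BPN_Cmpd17b and 0.655 ± 0.11 in BPN_vehicle (SD over libraries). The ranges of this ratio overlapped among all 4 groups. Both genes share exon bases with genes annotated on the other strand, Gm43361 for Atp2a2 and Cep85l and Gm47644 for Pln.

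Sln, which encodes sarcolipin, the SERCA inhibitor typical of atria, had few counts except in 1 library. BPH_vehicle replicate 7 had 559 counts of it, or 18.8 CPM. Of the 24 other libraries, 9 were at 0, 12 had 1 to 6 counts, and 3 had 10 to 29 counts, with 0.886 CPM as the highest level. In the BPH_vehicle library with Sln, of the 9 atrial markers, the atrial myosin genes Myl7 and Myl4 had 68.8 and 127 CPM, against at most 1.51 and 7.2 CPM in the others. Dkk3 (20.2 CPM, at most 12.3 in the others), Stard10, Kcnj3 and Nr2f2 were also highest in this library. Nppa had 886 CPM, the second highest, and Tbx5 15.5 CPM, under the median of 17.1. Bmp10 was at 0, as in 23 of the 25 libraries. The summed atrial list ran from 563 to 2629 CPM in BPH_Cmpd17b, 425 to 1226 in BPH_vehicle, 188 to 311 in BPN_Cmpd17b and 261 to 968 in BPN_vehicle. Nppa, with 77.1 to 2546 CPM, made up a large part of it. The 2 next libraries by Sln count, BPH_Cmpd17b replicate 4 with 29 and BPN_vehicle replicate 5 with 27 counts, also came next by Myl7, with 1.18 and 1.51 CPM. The part of atrial RNA in these Sln counts was not tested. Sln is therefore given as levels.

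Slc8a1, the gene of the sodium-calcium exchanger, lay higher in each BPH_vehicle library than in any BPN_vehicle library, but whether it was called turned on 1 library. Its lowest, median and highest levels were 369, 384 and 406 CPM in BPH_vehicle, against 86.1, 318 and 364 CPM in BPN_vehicle. Of all genes tested, 3.4% had groups apart in this direction. With 25 libraries the log2 difference was 0.38 (SE 0.18, interval 0.01 to 0.74, adjusted p = 0.15), which was not called. Without BPN_vehicle replicate 7, which had the 86.1 CPM, the means were 387 ± 14.1 CPM (n = 7) in BPH_vehicle and 334 ± 25.2 CPM (n = 6) in BPN_vehicle. The difference was then smaller and called, at 0.21 (SE 0.07, a fold of 1.16 with an interval of 1.06 to 1.27, adjusted p = 0.018). That library was set aside for its low values of the members, Slc8a1 among them, so this p is not independent of the choice. In that fit, 24.2% of all genes were called, and 2 of 9 members, Casq1 and Slc8a1. With Cmpd17b, Slc8a1 measured 324, 415 and 455 CPM at the lowest, median and highest in BPH_Cmpd17b and 339, 365, 384, 396 and 401 CPM in BPN_Cmpd17b. Those groups overlapped, with a difference of 0.11 (interval -0.31 to 0.53, adjusted p = 0.80) with 25 libraries and 0.13 (-0.02 to 0.27, adjusted p = 0.252) with 24. The difference between the 2 strain effects is the interaction described below, which was not called. Within batches the vehicle difference was 0.39 in batch 1 (adjusted p = 0.278) and 0.34 in batch 2 (adjusted p = 0.187). Slc8a1 shares exon bases with AC122399.1 and Gm11096 on the other strand, and of its 6 nearest tested genes on chromosome 17, Thumpd2 was called lower in BPH_vehicle (log2 difference -0.45, adjusted p = 0.0056) and Tmem178 lower in BPH_Cmpd17b (-1.46, adjusted p = 0.0302).

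Atp2b1 encodes the plasma membrane calcium pump found in most cell types. It averaged 44.4 ± 5.16 CPM in BPH_Cmpd17b, 46.2 ± 4.87 in BPH_vehicle, 47.5 ± 3.34 in BPN_Cmpd17b and 42.9 ± 7.12 in BPN_vehicle (SD). Its strain difference was 0.11 with vehicle (interval -0.04 to 0.27, adjusted p = 0.337) and -0.15 with Cmpd17b (-0.33 to 0.02, adjusted p = 0.275), neither of them called. With 24 libraries it was 0.05 with vehicle (-0.07 to 0.17) and -0.15 with Cmpd17b (-0.28 to -0.02, adjusted p = 0.0988), again not called. Camk2d, the main CaMKII gene of the heart by common account, averaged 156 ± 10.4 CPM in BPH_Cmpd17b, 154 ± 10.4 in BPH_vehicle, 146 ± 12.6 in BPN_Cmpd17b and 133 ± 25.2 in BPN_vehicle. With vehicle its strain difference was 0.22 (0.03 to 0.41, adjusted p = 0.0943) with 25 libraries and 0.14 (0.01 to 0.27, adjusted p = 0.11) with 24. It missed the threshold in both fits. Per kilobase of exon, merged over all annotated transcripts, its level of 6.54 CPM lay near those of Camk2g (7.15) and Camk2a (6.12). The merged lengths were 22.493 kb for Camk2d, 6.401 kb for Camk2g and 7.465 kb for Camk2a. Not divided by length, the mean levels over the 25 libraries were 147.1, 45.79 and 45.67 CPM, so the likeness depends on the length used.

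**Figure D2:**
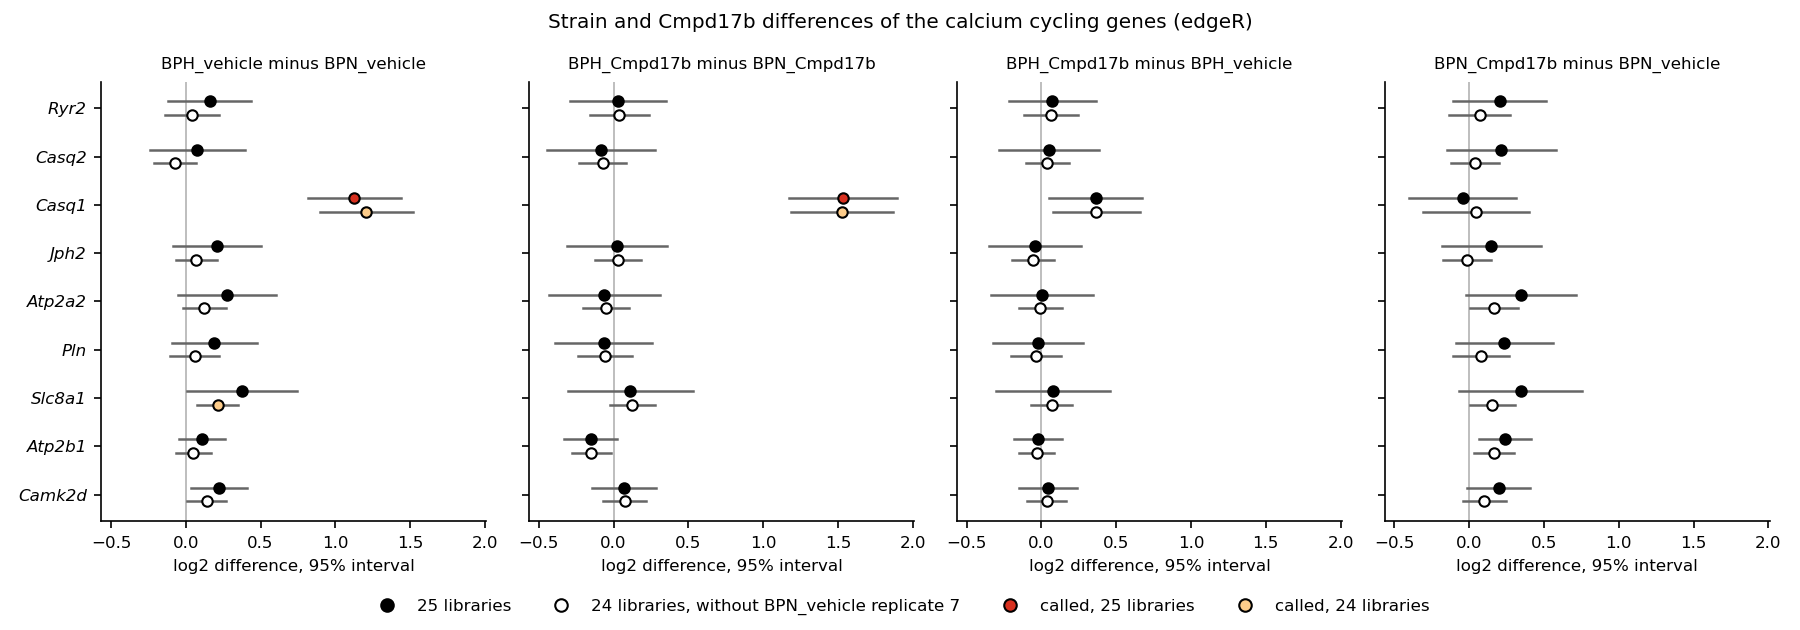
Log2 differences of the 9 tested members with 95% intervals (edgeR), in the 2 strain comparisons and the 2 Cmpd17b comparisons, with 25 libraries (filled) and with 24 (open), called ones in colour. Casq1 is set off from 0 in both strain comparisons, Slc8a1 is called with 24 libraries alone, and no member is called in either Cmpd17b comparison.

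None of the 9 tested members was called between Cmpd17b and vehicle in either strain. In BPH/2J mice 0 of 15543 genes were called between BPH_Cmpd17b and BPH_vehicle (0% of genes, with 287 at an unadjusted p under 0.05), and in BPN/3J mice 0 between BPN_Cmpd17b and BPN_vehicle (0%, with 1506). DESeq2 called 0 and 1 genes in these comparisons, and none of them was a member. For the 8 members other than Casq1, with 24 libraries, the 95% intervals of the fold lay between 0.868 and 1.19 in BPH/2J and between 0.887 and 1.26 in BPN/3J. With 25 libraries they were wider, from 0.785 to 1.38 in BPH/2J and from 0.88 to 1.69 in BPN/3J. Casq1 in BPH_Cmpd17b exceeded that in BPH_vehicle by 0.36 (interval 0.05 to 0.67, unadjusted p = 0.0241, adjusted p = 1), with 12.5 ± 2.36 against 9.70 ± 1.83 CPM and overlapping groups. In BPN/3J the Casq1 difference was -0.04 (-0.40 to 0.31). Atp2b1 in BPN_Cmpd17b exceeded that in BPN_vehicle by 0.24 (0.07 to 0.41, unadjusted p = 0.00861, adjusted p = 0.514).

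The median log2 difference of the 9 members was 0.21 between BPN_Cmpd17b and BPN_vehicle, where the median of all genes was -0.01, and 8 of 9 were positive. Without BPN_vehicle replicate 7 the members' median was 0.08. Between BPH_vehicle and BPN_vehicle it was likewise 0.21 with 25 libraries and 0.07 with 24, beside -0.0008 and 0.01 for all genes. These 2 comparisons share the BPN_vehicle libraries. In the comparisons without that group, the members' medians were 0.04 (BPH_Cmpd17b and BPH_vehicle) and 0.02 (BPH_Cmpd17b and BPN_Cmpd17b). The difference between the Cmpd17b effects in BPH/2J and BPN/3J was called for 0 of 15543 genes (0%, with 595 at an unadjusted p under 0.05), with a members' median of -0.19 with 25 libraries and -0.07 with 24. Among members its size was 0.41 for Casq1 (-0.06 to 0.87), -0.26 for Slc8a1 (-0.82 to 0.29) and -0.27 for Atp2b1 (-0.50 to -0.03, adjusted p = 0.917). With 24 libraries it was 0.32 for Casq1 (-0.13 to 0.77), -0.09 for Slc8a1 (-0.29 to 0.11) and -0.20 for Atp2b1 (-0.38 to -0.02, adjusted p = 1).

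BPN_vehicle replicate 7 had low levels of calcium cycling transcripts while its ventricular markers lay on both sides of the group's median. Set against the median of the 6 other BPN_vehicle libraries, it had 25.7% of the Slc8a1 level, 33% of Atp2a2, 36.2% of Casq2, 38.9% of Jph2, 40.4% of Pln and 44.8% of Ryr2. Camk2d stood at 60.6% and Atp2b1 at 69.8%, while Casq1 stood at 141%. It was thus the lowest library of its group for 8 of the 9 members and below 50% of the median for 6 of them, as 9.75% of all genes were. The 12 ventricular markers ran from 64.5% (Actc1) to 133% (Tnni3), with Myh6 at 81.5% and Tnnt2 at 97.5%. The 8 endothelial markers were at 196% to 261%, with a sum of 1374 CPM where the next library of all 25 had 696 CPM, and the 8 fibroblast markers were at 133% to 186%. Its mitochondrial share of 38.68% was the highest of the 25. The part of these other cell types and of the mitochondrial share in the low calcium transcripts was not tested, and in such bulk RNA fewer cells of a type and less RNA per cell cannot be told apart.

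**Figure D3:**
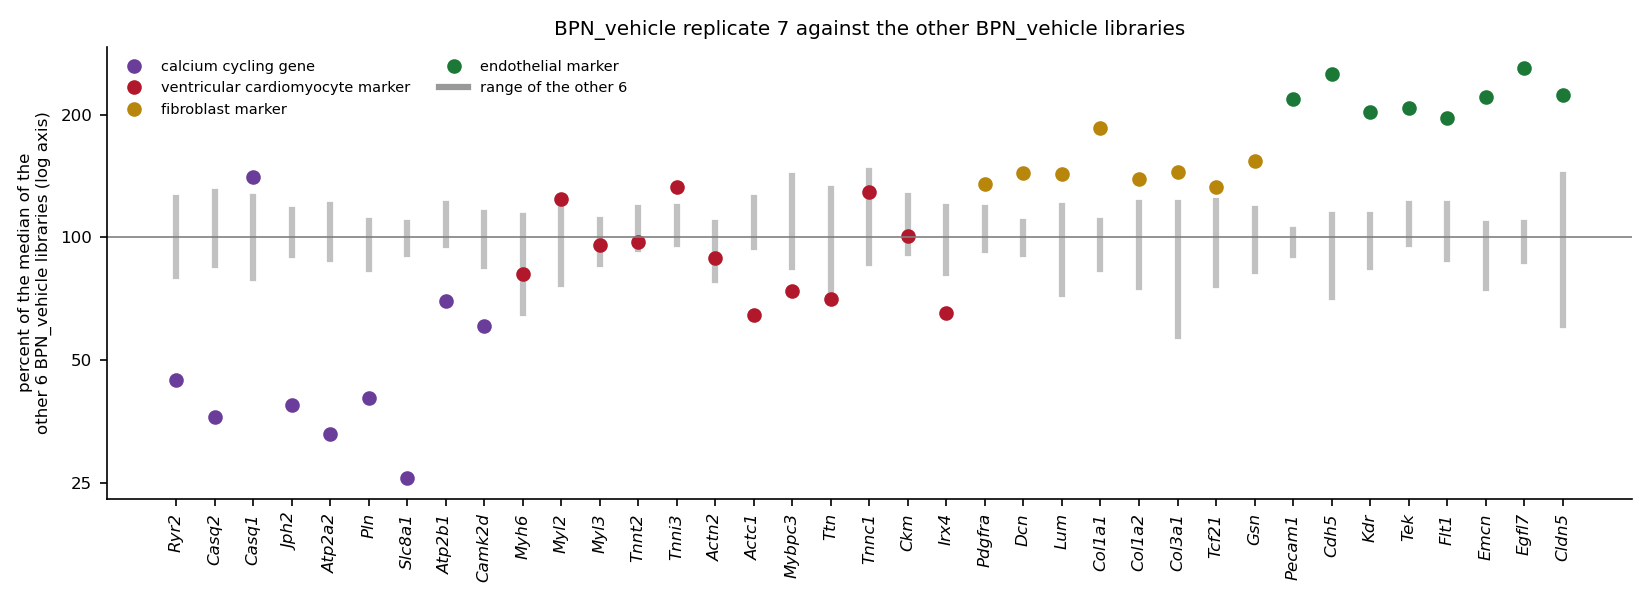
Level of each gene in BPN_vehicle replicate 7 as a percent of the median of the 6 other BPN_vehicle libraries (log axis), with the range of those 6 as grey bars, for the members and for ventricular, fibroblast and endothelial markers. Of the members, 6 lie under 50%, and the endothelial markers lie near or above 200%. The ventricular markers run from 64.5% to 133%, with Actc1, Irx4, Ttn and Mybpc3 under the range of the other 6 libraries and Myl2 and Tnni3 above it.

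A milder departure was seen in BPH_Cmpd17b replicate 6, the 1 batch 2 library among the 6 of its group. Against the median of the 5 other libraries of its group it had 62.9% of the Casq2 level, 72.6% of Pln, 72.7% of Jph2 and 77% of Atp2a2, and 129% of Atp2b1. Ryr2 was at 114% and Casq1 at 100%. In the same library the 12 ventricular markers ran from 51.8% (Myl2) to 97.2% (Ttn), with Myl3 at 66.5%. For all of them but Ttn it was the lowest library of its group. The 8 fibroblast markers ran from 55.6% (Gsn, the lowest of its group) and 104% (Dcn) up to 427%, 495% and 534% for the collagen genes Col1a2, Col3a1 and Col1a1. The stretch-responsive peptide gene Nppa reached 2546 CPM, against 886 CPM in the next library of all 25. Its mitochondrial share of 26.23% was the lowest of the 25. The part of these changes in its calcium transcripts was not tested.

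Of 121 other calcium handling genes in 9 lists, 118 were tested, and 7 were called higher and 7 lower in BPH_vehicle than in BPN_vehicle. That is 11.9% of them, beside 18.9% of all genes. In BPH_Cmpd17b against BPN_Cmpd17b, 7 were called higher and 4 lower, or 9.32% beside 14.1%. With 24 libraries there were 16 higher and 14 lower with vehicle (25.4% beside 24.2%), and 12 higher and 12 lower with Cmpd17b (20.3% beside 20.1%). The shares with 25 libraries lay below the background of that fit, and those with 24 libraries were near theirs. No gene of these lists was called in a Cmpd17b comparison or in the interaction. The 2 strain comparisons have no library in common, but they come from 1 fit and share its estimate of spread and its batch term. With 25 libraries 7 genes were called in both, each in 1 direction: Cacna2d1, Camk2b, Ppp2r5a, Rem1 and Tmx1 higher in BPH/2J, and Cacng6 and Myoz2 lower. The share of all genes called in both was not computed, so this count has no background beside it.

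Among L-type and T-type channel genes, 2 rose and 1 fell of 14 with vehicle (21.4% beside 18.9% of all genes), and 3 rose and 1 fell with Cmpd17b (28.6% beside 14.1%). Cacng6, a gamma subunit gene, was low throughout, at 0.157 ± 0.11 CPM in BPH_Cmpd17b and 1.32 ± 0.47 in BPN_Cmpd17b, and at 0.173 ± 0.13 in BPH_vehicle and 0.967 ± 0.24 in BPN_vehicle. Its groups did not overlap, and the log2 differences were -2.96 with Cmpd17b and -2.52 (adjusted p = 9.46e-06) with vehicle. Rem1, a small GTPase that inhibits L-type channels, had 6.38 ± 1.09 CPM in BPH_Cmpd17b and 3.51 ± 0.34 in BPN_Cmpd17b, and differed by 0.89 there and by 0.84 with vehicle (adjusted p = 2.6e-05). Cacna2d1, the alpha2-delta subunit gene, had 101 ± 17.5 CPM in BPH_vehicle and 67.9 ± 16.4 in BPN_vehicle, a difference of 0.59 (adjusted p = 3.49e-05), and differed by 0.47 with Cmpd17b. Cacnb1, a beta subunit gene, was called with Cmpd17b (0.58, adjusted p = 0.0014), at 10.03 ± 1.80 CPM in BPH_Cmpd17b and 6.60 ± 0.65 in BPN_Cmpd17b.

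In the other lists, 0 of 14 genes of the ryanodine receptor complex and 0 of 12 of mitochondrial calcium transport were called in either strain comparison with 25 libraries. Of all genes, 18.9% were called there with vehicle and 14.1% with Cmpd17b. With 24 libraries 1 of the receptor complex was called with vehicle (7.14% beside 24.2%) and 3 with Cmpd17b (21.4% beside 20.1%). Of the mitochondrial genes, 3 were called with vehicle (25%) and 1 with Cmpd17b (8.33%) in that fit. Of 10 genes of dyad and T-tubule structure, 2 were called with vehicle (20% beside 18.9%) and 0 with Cmpd17b: Jph1, the junctophilin typical of skeletal muscle, was higher (0.43, adjusted p = 0.00979) and Cav3, the muscle caveolin, lower (-0.30, adjusted p = 0.00693). With 24 libraries 4 of these 10 were called with vehicle (40% beside 24.2%), 2 in each direction, and 0 with Cmpd17b. Of 11 SERCA regulators and lumenal proteins, Tmx1, which encodes a thioredoxin of the reticulum membrane, rose by 0.68 with vehicle (adjusted p = 4.01e-05) and 0.54 with Cmpd17b, and Strit1, whose peptide DWORF counters the inhibition of SERCA, was lower with Cmpd17b (-0.55, adjusted p = 0.0406). Of 18 kinases and phosphatases, Ppp2r5a, a regulatory subunit gene of protein phosphatase 2A, rose by 0.33 with vehicle (adjusted p = 0.000103) and by 0.21 with Cmpd17b. In that list the phosphodiesterase gene Pde4d was also higher with vehicle (0.32, adjusted p = 0.0197), and Ppp1cc, a catalytic subunit gene of protein phosphatase 1, lower with Cmpd17b (-0.25, adjusted p = 0.0424). Of 14 genes of the calcineurin pathway, Myoz2, whose Z-disc protein binds calcineurin, fell by 0.40 with vehicle (adjusted p = 0.000453), and Nfatc2, a transcription factor gene that calcineurin acts on, was higher by 0.49 with Cmpd17b (adjusted p = 0.00621). Of 13 genes of store-operated entry and IP3 release, 4 fell with vehicle, namely the receptor genes Itpr1, Itpr2 and Itpr3 and the calcium sensor gene Stim1 (30.8% beside 18.9%), and 0 were called with Cmpd17b. With 24 libraries 5 were called with vehicle (38.5% beside 24.2%) and 4 with Cmpd17b (30.8% beside 20.1%). Of the genes named from these lists, Itpr1, Itpr2, Itpr3, Stim1, Jph1, Cav3, Strit1, Pde4d and Ppp1cc are named after their values were seen, as are those of the conduction list above. For Itpr1, Itpr2, Itpr3 and Stim1, BPN_vehicle replicate 7 was the highest library of its group, with 46.8, 28.3, 20.3 and 20.9 CPM. Without that library Stim1 lost its call (adjusted p = 0.0748).

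Of 12 paralogs of the members that were tested, Camk2b, another CaMKII gene, was called, at 12.3 ± 1.76 CPM in BPH_vehicle and 8.56 ± 1.80 in BPN_vehicle (log2 difference 0.52, adjusted p = 0.0027) and at 12.8 ± 2.91 in BPH_Cmpd17b and 9.78 ± 0.59 in BPN_Cmpd17b (0.42, adjusted p = 0.0406). Its groups overlapped in both comparisons. This 1 gene is 8.33% of the 12 paralogs, beside 18.9% of all genes called with vehicle and 14.1% with Cmpd17b. The plasma membrane pump genes Atp2b4 and Atp2b3 were called with 24 libraries, Atp2b4 higher by 0.38 with vehicle (adjusted p = 0.0143) and 0.40 with Cmpd17b (adjusted p = 0.0214), and Atp2b3, under 1 CPM, at -1.19 (adjusted p = 0.0438) and -1.39 (adjusted p = 0.0363). With 25 libraries neither was called. The others (Atp2a1, Atp2a3, Atp2b2, Camk2a, Camk2g, Jph4, Ryr1, Ryr3 and Slc8a2) were not called in either fit.

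**Figure D4:**
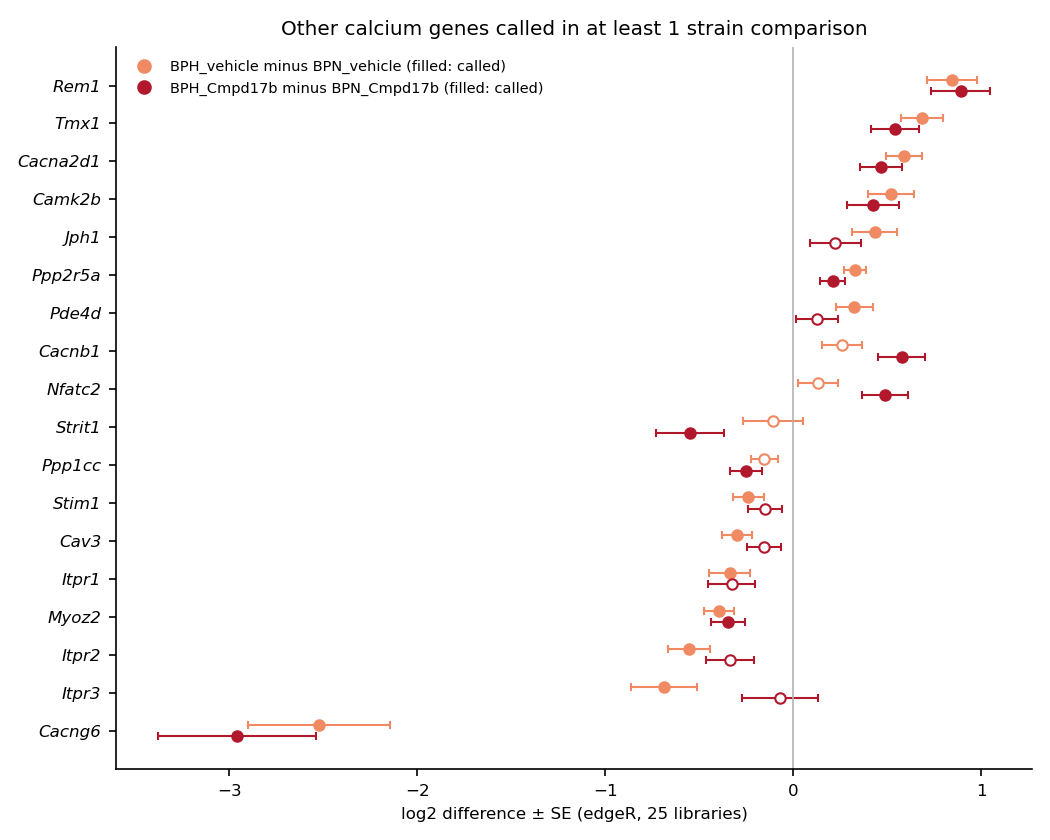
Log2 differences ± SE (edgeR, 25 libraries) of the 18 other calcium genes called in at least 1 strain comparison, with filled points where called. The 7 genes filled in both comparisons lie on the same side of 0, and Cacng6 lies farthest from 0, at -2.52 and -2.96.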

How the data were processed

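Per the labels, 26 libraries of polyadenylated RNA from mouse left ventricle were deposited, and 25 entered the tests, without the kidney-like one. The submitters' processing notes name Trim Galore 0.6.7, STAR 2.7.9a and the build GRCm39 (mm39). Which annotation and counting program were used, and whether strand was used, is not given in the sources used here. The authors deposited expected counts per gene, of which 2.21% differed from a whole number by over 0.01. Rounded counts were used. Groups and batches come from the labels, and replicates are numbered in sample order. Each title names a different animal. Of 73 pairs of libraries within groups, 0 were identical.

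Genes kept by filterByExpr were TMM-scaled and tested with edgeR 4.0.16 (R 4.3.3) in 1 fit of 25 libraries with a batch term, with Benjamini-Hochberg adjustment across the genes tested. BPN_Cmpd17b holds batch 1 libraries alone, so its batch term comes from the other groups. SE is the difference over the square root of F. The CPM of Sln use the same library sizes. Exon lengths are from GENCODE vM21 (GRCm38), with the exons of all transcripts of a gene merged. RefSeq gave promoters for 8 of the 10 members, not for Atp2a2 or Sln. The edgeR fit was also run on simulated counts, whose outcome is not given here. Those counts had no batch effect and no library that stands apart, so they could not check the fit for either. The members, the 9 calcium lists and the 12 marker lists were chosen with earlier results of these data known. From the calcium lists, up to 6 called genes per comparison with the smallest adjusted p are named, and all paralogs tested. Alternatives used DESeq2 1.42.0, limma 3.58.1 and other libraries, filters and scalings.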

Additional observations from a re-analysis of the deposited data

Results flagged for a closer look

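Over 40 sets of values (10 genes in 4 groups), 12 had a highest or lowest library far from the others of its group by Dixon's criterion. For independent sets of evenly spread values, chance alone meets it in about 1 set in 20. These sets share libraries, 2 of which gave 4 of the 12 each, and 3 sets are of Sln, with few counts. The 12 can therefore not be set against that rate. In BPN_vehicle replicate 7 these were Atp2a2 at 2598 CPM, Pln at 2212 CPM, Jph2 at 181 CPM and Slc8a1 at 86.1 CPM, each the lowest of its group. In BPH_Cmpd17b replicate 6 they were Casq2 at 578 CPM, Jph2 at 373 CPM and Pln at 4241 CPM, each the lowest, and Atp2b1 at 54.6 CPM, the highest. In BPH_vehicle replicate 1, Ryr2 was the highest at 826 CPM. For Sln, the highest library stood apart in 3 groups: BPH_Cmpd17b replicate 4 at 0.728 CPM, BPH_vehicle replicate 7 at 18.8 CPM and BPN_vehicle replicate 5 at 0.886 CPM. The Sln counts of replicate 4 and replicate 5 there were 29 and 27. No difference between the strains in the Cmpd17b effect passed the threshold for a member.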

How the results depend on the processing

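No paired analysis was possible because replicate numbers were given in sample order and link no libraries. Casq1 kept its direction and its call in both strain comparisons under every alternative but all 26 libraries, and in each fit that left out 1 library. With all 26 libraries 0 members were called in both strain comparisons, with 1492 genes called with vehicle and 1195 with Cmpd17b. By voom with quality weights, 2 members (Casq1 and Slc8a1) were called with vehicle, and 3405 genes with Cmpd17b. Leaving out the 3 libraries that stand apart, an alternative chosen after seeing the data, also gave 2. Batch 2 alone called 1130 genes with vehicle and, with 1 library against 2, 122 between BPH_Cmpd17b and BPH_vehicle. DESeq2 called 1 gene between BPN_Cmpd17b and BPN_vehicle. Leaving out 1 library at a time gave 2598 to 3751 genes with vehicle, highest without BPN_vehicle replicate 7, and 1834 to 2066 with Cmpd17b, with 1 to 2 and 1 to 1 members, and 0 to 0 in the Cmpd17b and interaction comparisons.

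Signs turned for members not called, and the cause was not tested. Between BPH_vehicle and BPN_vehicle they were Casq2 at -0.0236 by voom, -0.0818 in batch 2 and -0.0646 without the 3 libraries, and Pln at -0.0285 and Atp2b1 at -0.00906 in batch 2. Between BPH_Cmpd17b and BPN_Cmpd17b they were Pln at 0.00128 in batch 1, 0.00552 with the groups compared alone and 0.00715 without the 3 libraries, and with all 26 libraries Ryr2 at -0.138, Jph2 at -0.155, Slc8a1 at -0.0308 and Camk2d at -0.0836. Between BPH_Cmpd17b and BPH_vehicle they were Pln at 0.0317 by voom, Jph2 at 0.0266 and Pln at 0.0409 in batch 1, Jph2 at 0.0176 and Pln at 0.0672 without the 3 libraries, and Atp2a2 at -0.00688 with the groups compared alone. In batch 2 they were Casq2 at -0.256, Atp2a2 at -0.223, Atp2b1 at 0.102 and Camk2d at -0.0614, and with all 26 libraries Ryr2 at -0.193, Casq2 at -0.222, Atp2a2 at -0.256, Slc8a1 at -0.139 and Camk2d at -0.188. Between BPN_Cmpd17b and BPN_vehicle they were Casq1 at 0.103 and Jph2 at -0.0118 by voom, and Jph2 at -0.00219 without the 3 libraries. In the interaction they were Ryr2 at 0.0306 by voom, and Casq2 at 0.0341 and Jph2 at 0.0198 without the 3 libraries. Leaving out 1 library moved across 0 Casq2 (-0.0722 to 0.157) between BPH_vehicle and BPN_vehicle, and Jph2 (-0.00397 to 0.0689), Pln (-0.113 to 0.00688) and Ryr2 (-0.00821 to 0.0712) between BPH_Cmpd17b and BPN_Cmpd17b. It did the same for Atp2a2 (-0.0266 to 0.0631), Atp2b1 (-0.0508 to 0.0105), Jph2 (-0.0869 to 0.0344) and Pln (-0.0501 to 0.0904) between BPH_Cmpd17b and BPH_vehicle, and for Casq1 (-0.133 to 0.0604) and Jph2 (-0.0150 to 0.214) between BPN_Cmpd17b and BPN_vehicle. Sln, with 0 to 29 counts outside 1 library, was tested where the filter on low counts was dropped or batch 2 stood alone, and was called in neither. Without the filter it differed by 1.75 (adjusted p = 0.572) between BPH_vehicle and BPN_vehicle and by 3.50 (adjusted p = 0.557) between BPH_Cmpd17b and BPN_Cmpd17b.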

Other observations

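The 5 batch 2 libraries had Casq2 levels under those of nearly all batch 1 libraries of their groups, and high Atp2b1 levels. Casq2 in batch 2 was 578 CPM in BPH_Cmpd17b, 684 and 686 in BPH_vehicle, and 712 and 744 in BPN_vehicle, where batch 1 had 908 to 1023, 837 to 906 and 797 to 1075 CPM, apart from BPN_vehicle replicate 7 at 302 CPM. Atp2b1 in batch 2 was 54.6 CPM in BPH_Cmpd17b, 51.9 and 49.05 in BPH_vehicle, and 52.0 and 50.0 in BPN_vehicle, where batch 1 had 40.4 to 44.1, 39.5 to 49.9 and 30.0 to 43.0 CPM. These are values with no test, chosen after they were seen.

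The kidney-like library held 77.4 CPM of Slc8a1, 60.0 CPM of Atp2b1 and 354 CPM of Atp2a2 (not scaled between libraries), and 24.9 CPM of Camk2d, with 0 counts of Sln.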
